A study of Mus musculus with 71 samples.

Results

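The interferon-induced GTPases of blood cells were followed as 10 genes: the guanylate-binding proteins Gbp2, Gbp3, Gbp4, Gbp5, Gbp7, Gbp8 and Gbp9, and the IRGM proteins Irgm1, Irgm2 and Igtp (also called Irgm3). They were found by gene symbol, and all 10 were among the 10508 genes of the normalized table and the 55416 genes of the count table. Terminal whole blood was taken from female Balb/c AnNRj mice, 6 weeks old at the start. Intradermal hypochlorous acid (HOCl), which induces a disease resembling systemic sclerosis, was given on 5 days a week for 6 weeks, and control mice received PBS. The groups were 11 control mice, 12 mice given HOCl alone, and 12 mice each given HOCl with E07, D11, D06 or BPR21. E07 and D11 are monoclonal antibodies against galectin-3 given subcutaneously. What D06 and BPR21 are is not given in the sources used here, so these groups carry only their labels. Control mice were identified by their titles, because a further label field gives them the HOCl genotype entry too. The groups were housed in separate cages, so cage and group cannot be told apart.

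These GTPases are low in most resting cells and are strongly induced by interferon gamma. Interferon gamma acts mainly through GAS elements in the DNA, and type I interferons mainly through ISRE elements. Guanylate-binding proteins assemble on the vacuoles that surround intracellular parasites and bacteria and help to break them open. The IRGM proteins hold the effector GTPases inactive on the cell's own membranes, so that the attack is directed to membranes that lack them.

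On GRCm39, the 10 genes lay on 3 chromosomes. On chromosome 3, forward strand, Gbp5 (142199739 to 142228105), Gbp7 (142236044 to 142255910), Gbp3 (142265731 to 142278979) and Gbp2 (142326349 to 142343779) followed one another. On chromosome 5, reverse strand, Gbp8 (105162016 to 105287452), Gbp9 (105224332 to 105287452) and Gbp4 (105263633 to 105287609) overlapped and shared 107 exonic bases. On chromosome 11, Igtp (58089840 to 58098417) and Irgm2 (58090444 to 58113615) overlapped on the forward strand with 162 shared exonic bases, and Irgm1 (48752795 to 48763164) lay apart on the reverse strand. Reads from shared exons and from near-identical family members may be divided differently by other counting rules, and Gbp7 also shared 637 exonic bases with Gm43802.

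The 250 bases before 1 transcription start per gene, that of the transcript GENCODE marks as canonical, were searched on both strands for GAS-like (TTCNNNGAA) and ISRE-like letters (GAAA, any 2 bases, GAAA). The stretches with a match are printed because they are where interferon-activated factors could bind, with the matched letters in capitals and each read 5′ to 3′ on the gene's strand.
Gbp5, GAS-like, chr3:142202440-142202468, forward strand: tgtgggcaacTTCTGGGAAattagttcag
Gbp7, GAS-like and GAS-like, chr3:142235990-142236019, forward strand: tTTCCAGGAAaagcagaagcTTCTCAGAAa
Irgm1, overlapping ISRE-like matches, chr11:48762255-48762284, reverse strand: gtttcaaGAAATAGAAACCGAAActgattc
Irgm2, GAS-like then ISRE-like, chr11:58090333-58090361, forward strand: ccatTTCTAGGAActGAAACTGAAAgctg
Thus 4 of 10 members held either motif in this window. Among 21757 promoters, 10.6% held either motif, 7.70% the GAS-like letters, 3.32% the ISRE-like letters and 0.418% both. The windows of Igtp, Gbp2, Gbp3, Gbp4, Gbp8 and Gbp9 held neither set of letters, which says nothing of sites further away or before other starts. Several windows lay inside the genes as placed above, because other transcripts start further upstream. The windows of Irgm1, Gbp3 and Igtp lay wholly or nearly wholly in exons of other transcripts of the same gene, and those of Gbp4 and Gbp8 partly. The Gbp7 and Irgm2 windows lay in exons of Gm66604 and of Igtp, while those of Gbp2, Gbp5 and Gbp9 held no exon.

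Per exonic length, Igtp was the most abundant member. Its median over 71 mice was 61.4 RPKM (reads per kilobase of exon, scaled to the total count, range 42.9 to 84.1), and it exceeded Gbp2, the next gene, in 71 of 71 mice. Gbp2, a vacuole-targeted guanylate-binding protein, had a median of 25.0 RPKM and exceeded Irgm1 in 71 of 71 mice. Irgm1 (10.2), Irgm2 (9.69), Gbp4 (8.48) and Gbp7 (7.20) followed in RPKM, then Gbp3 (5.09), Gbp8 (4.24) and Gbp9 (4.11). Neighbours within this stretch were not cleanly ordered: Irgm1 was above Irgm2 in 33 of 71 mice, and Gbp4 above Gbp7 in 44. Gbp5, known for its part in inflammasome assembly, was lowest at 1.12 RPKM and lay below Gbp9 in 71 of 71 mice.

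Total counts ranged from 11932855 to 15948972 per mouse. Counts of the members ranged from medians of 88.5 per mouse for Gbp5 in D11 blood to 4111.5 for Igtp in D06 blood, so Gbp5 was measured with the least precision. HOCl mouse 8 had counts but no normalized values. The normalized values are variance-stabilized (vst) and lie on a log2-like scale, and they were compared with limma across all genes. A gene was called when the false discovery rate (FDR, Benjamini-Hochberg) was at most 0.05 and the fold change at least 1.3. The study describes the control, HOCl, E07 and D11 mice as biologically independent, and the labels number the libraries of every group. For D06 and BPR21 no source used here says that each library is a separate animal, so p-values there measure the spread between libraries, called mice throughout.

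**Figure D1:**
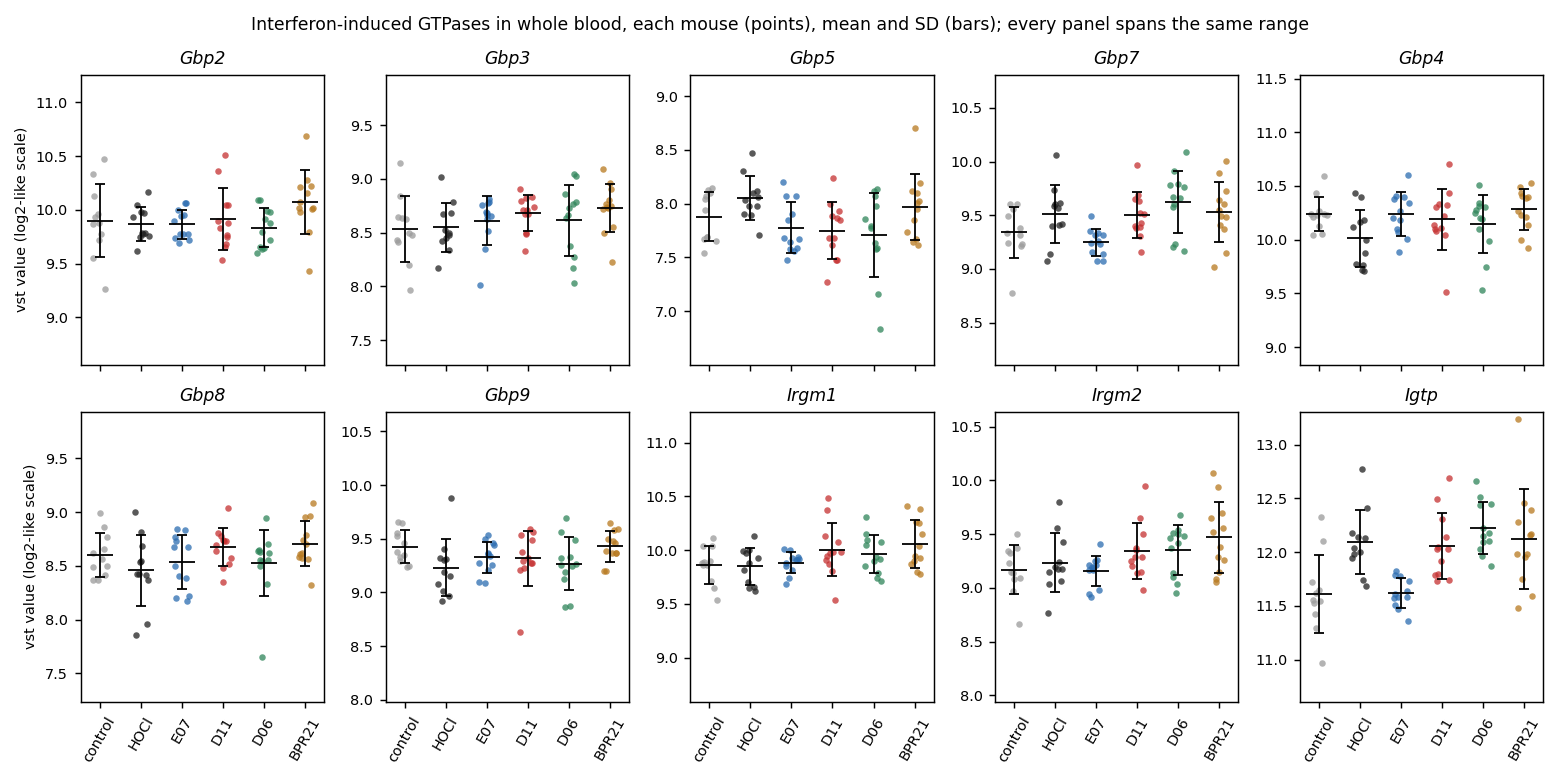
Vst values (log2-like scale, vertical axis) of the 10 members in each mouse by group; points are mice, the horizontal bar is the mean and the whiskers are the SD. Igtp averaged 11.61 in control, 12.09 in HOCl and 11.62 in E07 blood, and no other panel shows group means as far apart on the same span.

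HOCl blood was first compared with control blood, which asks what the disease model does to these genes. Igtp rose, and no other member was called. In control mice the vst value of Igtp was 10.97 at the lowest, 11.55 at the median and 12.33 at the highest. In HOCl mice it was 11.69, 12.04 and 12.77. The groups overlapped, but 11 of 11 HOCl mice lay above the control median. The mean was 11.61 ± 0.37 (SD, n = 11) in control and 12.09 ± 0.30 (SD, n = 11) in HOCl mice, a log2 fold change of 0.48 (SE 0.13, limma FDR 0.0314). The background was 4.96% of all genes called in either direction, and 4.79% called higher, against 1 of 10 members. The call was close to the threshold. With edgeR on counts the log2 fold change was 0.42 with an FDR of 0.0717, and edgeR called 5.1% of genes. Leaving out HOCl mouse 3 or 6, or control mouse 1, 2, 8, 9 or 10, brought the limma FDR to between 0.0505 and 0.0636, with log2 fold changes of 0.42 to 0.48.

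Of the other 9 members none was called. The chromosome 5 genes were lower in HOCl mice, with log2 fold changes of -0.23 for Gbp4 (SE 0.09, limma FDR 0.178), -0.19 for Gbp9 (FDR 0.281) and -0.14 for Gbp8 (FDR 0.562). Gbp4 ranged from 10.05 to 10.60 in control and from 9.71 to 10.43 in HOCl mice, with 9 of 11 HOCl mice under the control median of 10.23. Gbp5 and Gbp7, neighbours on chromosome 3, were each higher by 0.17 (FDR 0.362 and 0.430). Gbp7 is linked to assembly of the phagocyte NADPH oxidase. Gbp2 (-0.03), Gbp3 (0.01), Irgm1 (-0.01) and Irgm2 (0.07) lay near 0. The 95% intervals of these 9 log2 fold changes ran from -0.43 to 0.39, so changes much beyond 1.3-fold (0.379 on the log2 scale) were outside them.

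E07 was then compared with HOCl alone, the comparison of the antibody with the untreated model. Igtp fell, again as the only called member. In E07 mice Igtp was 11.36 at the lowest, 11.60 at the median and 11.82 at the highest, and 12 of 12 mice lay below the HOCl median of 12.04. The ranges overlapped only between 11.69 and 11.82. Igtp fell by 0.47 on the log2 scale (SE 0.10, limma FDR 0.00105), to a mean of 11.62 ± 0.14 (SD, n = 12). The background was 7.89% of genes called in either direction and 7.01% called lower. Leaving out any mouse in turn kept this call, with log2 fold changes between -0.51 and -0.41.

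Gbp7 and Gbp5 came nearest to joining it. The vst value of Gbp7 was 9.07, 9.57 and 10.06 (lowest, median, highest) in HOCl and 9.07, 9.25 and 9.50 in E07 mice. All 12 E07 mice lay below the HOCl median, and the log2 fold change was -0.26 (SE 0.09, limma FDR 0.0435). Gbp5 had a log2 fold change of -0.28 (SE 0.09, limma FDR 0.0432), with 3 of 12 E07 mice above the HOCl median. Both met the FDR limit and missed the fold limit with limma. With edgeR on counts the FDR was 0.0266 for Gbp7 and 0.264 for Gbp5, so Gbp5 met the limit with limma only. Gbp4 was 0.22 higher in E07 mice (FDR 0.122), with 11 of 12 mice above the HOCl median, and the remaining members had log2 fold changes from -0.08 for Irgm2 to 0.09 for Gbp9. The 95% intervals of the 9 members not called ran from -0.46 to 0.42.

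No member was called in D11, D06 or BPR21 blood against HOCl blood by limma, edgeR or DESeq2. The share of all genes called was 0.0571%, 0.133% and 0.638% by limma, 0.409%, 0.524% and 0.857% by edgeR, and 1.44%, 1.5% and 2.43% by DESeq2. At an unadjusted p under 0.05 limma had 1, 1 and 4 members, beside 14.1%, 12.7% and 14% of all genes. The Igtp log2 fold change was -0.04 for D11 (95% interval -0.29 to 0.21), 0.13 for D06 (-0.10 to 0.36) and 0.03 for BPR21 (-0.29 to 0.34). The widest of these spreads was in BPR21 mice, from 11.48 to 13.24 with a median of 12.07. BPR21 mouse 12 held that top value, and without it the Igtp log2 fold change against HOCl was -0.08 (FDR 0.849).

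Gbp5 had the lowest log2 fold change of the members in D11 and D06 mice, at -0.30 (SE 0.10, limma FDR 0.183) with D11 and -0.34 (SE 0.13, FDR 0.251) with D06, and -0.08 (FDR 0.791) with BPR21. Of the 10 members, 7 were above HOCl in D11 mice (median log2 fold change 0.10), 8 in D06 mice (0.09) and 9 in BPR21 mice (0.20), against medians near 0 over all genes. The 4 members under an unadjusted p of 0.05 in BPR21 mice were Gbp4 (0.27, FDR 0.199), Gbp8 (0.25, FDR 0.321), Gbp9 (0.20, FDR 0.337) and Irgm1 (0.21, FDR 0.278). All 12 BPR21 mice lay above the HOCl median for Gbp9. These comparisons and that of E07 share the same HOCl mice, so they are not independent of one another.

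**Figure D2:**
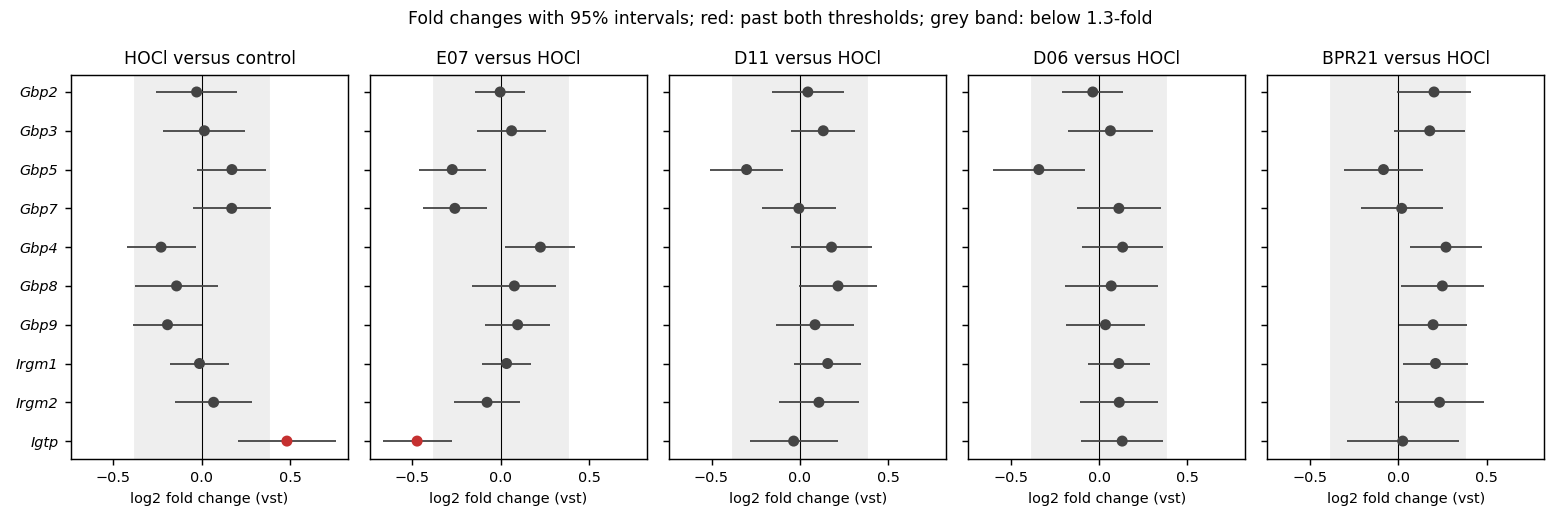
Log2 fold changes on the vst scale (points) with 95% intervals (lines) for the 10 members in HOCl versus control blood and in E07, D11, D06 and BPR21 versus HOCl blood; red marks a call and the grey band is below 1.3-fold. Igtp is the single red point in the first panel (0.48) and the second (-0.47), and no point is red in the other 3.

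Against control blood, Igtp was called higher in D06 mice and in no other of the 4 treated groups. Its mean was 11.62 ± 0.14 in E07, 12.06 ± 0.31 in D11, 12.12 ± 0.46 in BPR21 and 12.22 ± 0.24 in D06 mice (SD, n = 12 each). D06 mice ranged from 11.87 to 12.66, and 12 of 12 lay above the control median of 11.55. It was 0.61 higher than in control mice (SE 0.12, limma FDR 0.00206), where 7.88% of genes were called and 7.27% were higher. Without D06 mouse 5 it was 0.57 (FDR 0.00318).

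For D11 the Igtp log2 fold change against control was 0.45 (SE 0.13, limma FDR 0.117) and for BPR21 0.51 (SE 0.16, FDR 0.101). For E07 it was 0.01 with a 95% interval of -0.21 to 0.23. No other member was called against control in any of these groups. In the comparisons with 0 calls, limma had 0 members for E07, 1 for D11 and 3 for BPR21 at an unadjusted p under 0.05, beside 7.6%, 16.1% and 19.9% of all genes. edgeR called 0 members in each and DESeq2 called 1, Igtp, for BPR21. The share of genes called was 0.00952%, 0.0761% and 0.504% by limma, 0.00952%, 0.0952% and 1.78% by edgeR, and 0.19%, 1.66% and 4.96% by DESeq2. The test of E07 against the other labelled groups was added after the values were seen. Igtp was lower in E07 than in D11 (log2 fold change -0.44, FDR 0.0211), D06 (-0.60) and BPR21 mice (-0.50, FDR 0.0209), with 12 of 12 E07 mice under the other group's median each time. The share of genes called was 4.57%, 9.76% and 7.26%. Gbp7 had log2 fold changes of -0.25, -0.37 and -0.28 in E07 versus D11, D06 and BPR21 mice, with FDRs of 0.0413, 0.0052 and 0.0430, short of the fold limit. With libraries scaled by their total count, the Igtp log2 fold changes became -0.05, -0.03 and -0.09 (limma FDR 0.672, 0.802 and 0.461) and those of Gbp7 became 0.09, 0.14 and 0.08, so all 3 Igtp calls were lost. On that scale 44.4%, 74.2% and 45.8% of genes were called.

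The direction of these differences depended on how libraries were scaled. The vst values are scaled by size factors, and those the authors used are not given in the sources used here. Size factors recomputed from the counts of 10501 genes in 71 mice averaged 1.29 in control, 0.938 in HOCl, 1.28 in E07, 0.969 in D11 and 0.868 in D06 mice. When each library was scaled by its total count instead, the median of all genes moved from -0.02 to -0.46 in HOCl versus control, and from 0.02 to 0.49 in E07 versus HOCl. Igtp as a share of the library was then nearly flat, at 276 ± 53.5 CPM (counts scaled to a common library total) in control (SD, n = 11), 272 ± 33.2 in HOCl and 279 ± 30.9 in E07 mice (SD, n = 12 each). Its log2 fold change was -0.01 (limma FDR 0.959) and 0.04 (FDR 0.739), and 0.06 (FDR 0.697) in D06 versus control.

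On that scale other members were called instead, beside most of the transcriptome. Gbp4 (-0.77), Gbp9 (-0.72), Gbp8 (-0.69), Irgm1 (-0.51) and Irgm2 (-0.48) were lower in HOCl than in control mice, where 52% of all genes were called. Gbp4 went from 101 ± 26.8 CPM in control to 59.5 ± 18.1 in HOCl and 101 ± 21.8 in E07 mice. In E07 versus HOCl 7 members were higher, from 0.47 for Gbp2 to 0.78 for Gbp4, where 64.6% of genes were called, and in D06 versus control 6 were lower, where 67% of genes were called. On both scales Igtp stood highest and Gbp4 lowest of the 10 members in HOCl versus control, and Igtp lowest and Gbp4 highest in E07 versus HOCl.

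**Figure D3:**
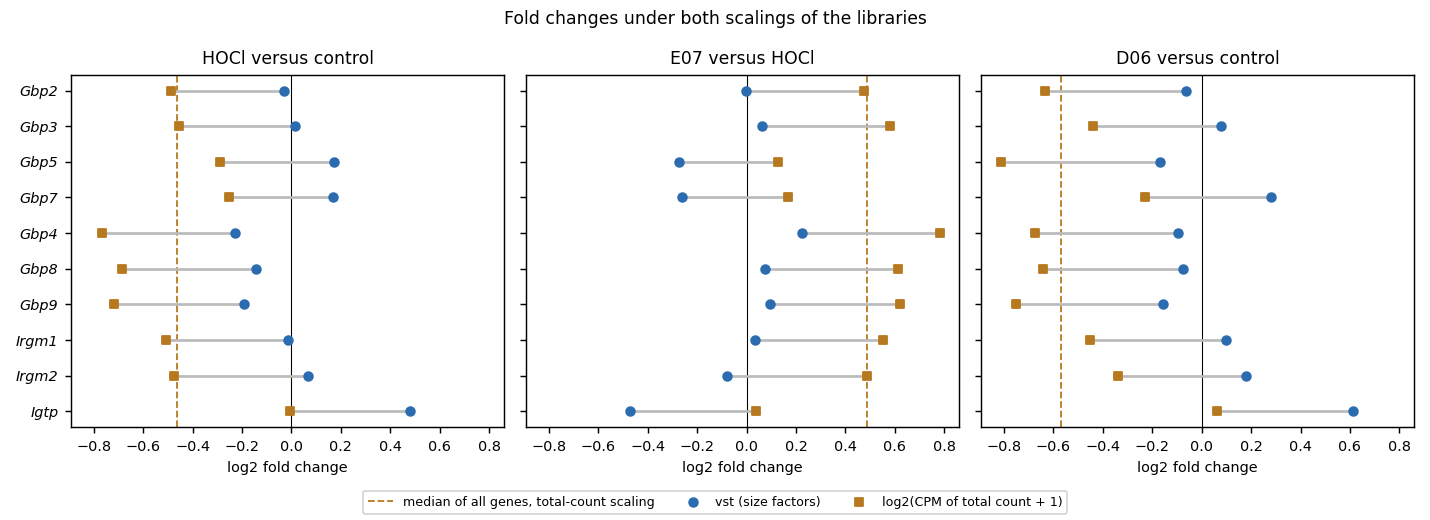
Log2 fold changes of the 10 members (horizontal axis) with vst values (blue circles) and with CPM of the total count (ochre squares) in 3 comparisons; the dashed line is the median of all genes under total-count scaling. Igtp moves from 0.48 to -0.01, from -0.47 to 0.04 and from 0.61 to 0.06, while Gbp4 moves from -0.23 to -0.77 in HOCl versus control.

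The ratio of Igtp counts to another member's counts in the same mouse does not depend on library scaling. These ratios were examined after the values above were seen, with permutation tests (two-sided, 100000 resamples) adjusted over 108 comparisons. Igtp already stood highest of the members in HOCl versus control and lowest in E07 versus HOCl. Its direction relative to the other 9 was thus set by choosing it. The ratios share the Igtp counts and the same mice, so their number is not a count of separate tests. In HOCl versus control, Igtp was higher relative to 9 of 9 other members, by 0.25 to 0.77 on the log2 scale, and 6 of the 9 had an adjusted p of at most 0.05. The exceptions were the ratios to Gbp2, Gbp5 and Gbp7. In E07 versus HOCl it was lower relative to 9 of 9, with 7 past that limit and Gbp5 and Gbp7 the exceptions.

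Of the 9 ratios, that to Gbp4 differed most in both comparisons. Gbp4 was the lowest member in HOCl versus control and the highest in E07 versus HOCl. This pair was thus picked as the extremes of the same values, and its p values are no separate support. The log2 ratio of Igtp to Gbp4 was 1.47 ± 0.33 in control (SD, n = 11), 2.24 ± 0.39 in HOCl and 1.49 ± 0.21 in E07 mice (SD, n = 12 each). All 12 HOCl mice were above the control median (permutation, adjusted p = 0.00121), and all 12 E07 mice were below the HOCl median (permutation, adjusted p = 0.000864). With its overlapping neighbour Irgm2, the Igtp ratio was 2.74 ± 0.20 in control, 3.22 ± 0.37 in HOCl and 2.76 ± 0.22 in E07 mice, with adjusted p values by permutation of 0.00252 and 0.00418. Against control, 0 ratios passed for E07, 5 for D11, 7 for D06 and 2 for BPR21. Against HOCl, 0 passed for D11, D06 and BPR21.

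Markers of red cell precursors moved in the same comparisons as Igtp. Of 38 erythroid markers, 37 were in the normalized table and none was at 0. HOCl mice had 28 of these 37 higher than control mice, E07 mice 31 lower than HOCl mice, and D06 mice 32 higher than control mice. For D11, D06 and BPR21 against HOCl the number was 0. Their summed share of the library was 4.37% to 15.1% in control, 10.2% to 22.7% in HOCl, 6.58% to 13.4% in E07, 7.30% to 18.2% in D11, 9.76% to 24.0% in D06 and 7.92% to 17.0% in BPR21 mice. The list includes globin genes and the libraries were globin-depleted, so this share may also vary with how much globin remained. With an erythroid score (the mean z-score of the markers) as a covariate, no member was called in any of the 9 comparisons with HOCl or control blood, and the Igtp log2 fold change was 0.03 in HOCl versus control (limma FDR 0.946), -0.13 in E07 versus HOCl (FDR 0.675) and 0.23 in D06 versus control (FDR 0.617). The same covariate left 1, 1 and 3 of 10508 genes called in those 3 comparisons, from 521, 829 and 828. In whole blood, fewer cells of a type and less RNA per cell cannot be told apart, and the part of red cell precursors in the Igtp difference was not tested.

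Markers of other blood cells were called too. In HOCl versus control, 3 of 13 neutrophil and 5 of 13 platelet markers were higher, and 0 markers of monocytes, B cells, T cells, NK cells and eosinophils were called. In E07 versus HOCl, 10 of 14 B cell and 2 of 6 eosinophil markers were higher, and 10 of 13 platelet, 3 of 13 neutrophil and 3 of 14 monocyte markers were lower. In D06 versus control, 8 of 13 platelet, 4 of 6 eosinophil and 3 of 13 neutrophil markers were higher, and 1 of 14 monocyte and 1 of 17 T cell markers lower. In BPR21 versus HOCl, 4 of 14 monocyte markers were lower and 2 of 17 T cell markers higher. Over all genes, 4.96%, 7.89%, 7.88% and 0.638% were called in these comparisons, in that order. These calls are on the vst scale. As a summed share of the library, neutrophil markers averaged 0.630% in control, 0.530% in HOCl, 0.577% in E07 and 0.463% in D06 mice, opposite to the calls. Monocyte markers averaged 0.386% in HOCl and 0.425% in E07 mice, also opposite. In the other cases the summed share went the way of the calls. No list had a marker at 0 in a whole group.

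Between mice of the same group, the members did not rise and fall as a single set. Correlations were taken over 70 mice on deviations from group means, with permutation tests within groups adjusted over 125 relations between members or between a member and a marker score. Of the 45 pairs, 10 had an adjusted p of at most 0.05, all 10 positive, and the median r was 0.12. Igtp went with Gbp7 (r = 0.65, rho = 0.61, 0.59 without the 2 farthest mice) and with Irgm2 (r = 0.64, rho = 0.58, 0.62 without the 2 farthest mice), each with an adjusted permutation p of 0.000156 for r. Gbp7 also went with Irgm2 (r = 0.49, rho = 0.38, 0.40 without the 2 farthest mice, adjusted permutation p = 0.00112).

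A separate run of pairs joined the chromosome 5 genes. Gbp4 went with Gbp9 (r = 0.47, rho = 0.41, 0.53 without the 2 farthest mice, adjusted permutation p = 0.00327) and with Gbp8 (r = 0.42, rho = 0.36, 0.37 without the 2 farthest mice, adjusted permutation p = 0.00687). Irgm1 joined both sets, with r = 0.41 to Gbp9 (rho = 0.43), 0.42 to Irgm2 (rho = 0.41), 0.39 to Gbp7 (rho = 0.38) and 0.34 to Igtp (rho = 0.35), at adjusted permutation p values of 0.0075, 0.00838, 0.0142 and 0.0481. Without the 2 farthest mice these r were 0.31, 0.36, 0.36 and 0.43. The tenth pair, Gbp2 and Irgm2 (r = 0.34, rho = 0.24), fell to 0.18 without the 2 farthest mice and rested on them. Gbp3 and Gbp5 were in none of the 10 pairs. On the total-count scale 44 of the 45 pairs passed, all positive.

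**Figure D4:**
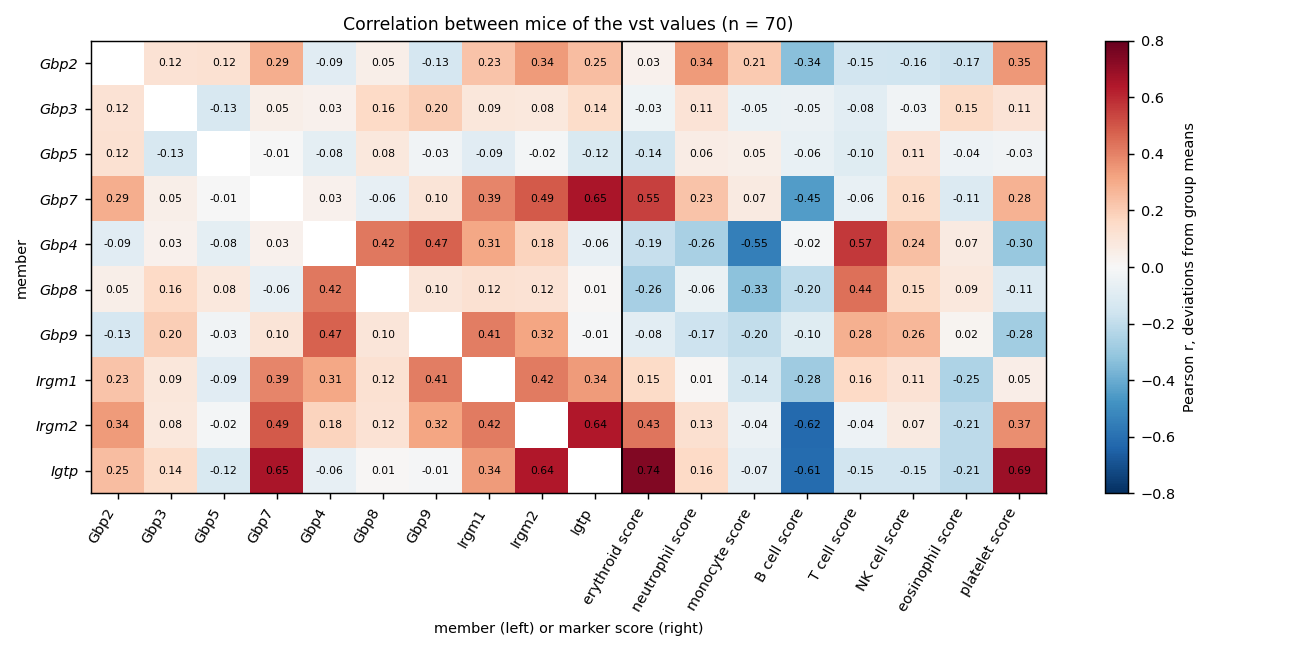
Pearson r between mice of the vst values (deviations from group means, n = 70) for pairs of members (left of the line) and for members with marker scores (right of it); red is positive and blue negative. Igtp, Gbp7 and Irgm2 form a red corner (0.49 to 0.65), and Gbp4 is red with Gbp8, Gbp9 and the T cell score and blue with the monocyte score.

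The same sets differed in the cell markers they followed. Igtp went with the erythroid score (r = 0.74, rho = 0.61, 0.68 without the 2 farthest mice, adjusted permutation p = 0.000156 for r), as did Gbp7 (r = 0.55, rho = 0.47, 0.51 without the 2 farthest mice) and Irgm2 (r = 0.43, rho = 0.32, 0.43 without the 2 farthest mice), but on the total-count scale these r turned to -0.32, -0.46 and -0.53. Igtp also went with the platelet score (r = 0.69, rho = 0.63, 0.63 without the 2 farthest mice) and against the B cell score (r = -0.61, rho = -0.56, -0.56 without the 2 farthest mice). Irgm2 went against the B cell score too (r = -0.62, rho = -0.53, -0.54 without the 2 farthest mice). Each of these 3 had an adjusted permutation p of 0.000156 for r. On the total-count scale the r of Igtp with the B cell score fell away to -0.04 (adjusted permutation p = 0.785) and that of Irgm2 turned to 0.17, while the r of Igtp with the platelet score was 0.60.

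Gbp4 instead went with the T cell score (r = 0.57, rho = 0.59, 0.52 without the 2 farthest mice, adjusted permutation p = 0.000156) and against the monocyte score (r = -0.55, rho = -0.60, -0.59 without the 2 farthest mice). Gbp8 had r = 0.44 (rho = 0.39, adjusted permutation p = 0.00239) with the T cell and -0.33 (rho = -0.35, adjusted permutation p = 0.0298) with the monocyte score. Gbp2 had r = 0.34 with the neutrophil and 0.35 with the platelet score, with rho of 0.22 and 0.24 that did not pass the limit. The monocyte relations turned positive on the total-count scale (0.42 for Gbp4 and 0.43 for Gbp8), while the T cell relations kept their sign. Gbp3, Gbp5, Gbp9 and Irgm1 had no relation with a marker score at an adjusted p of at most 0.05.

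**Figure D5:**
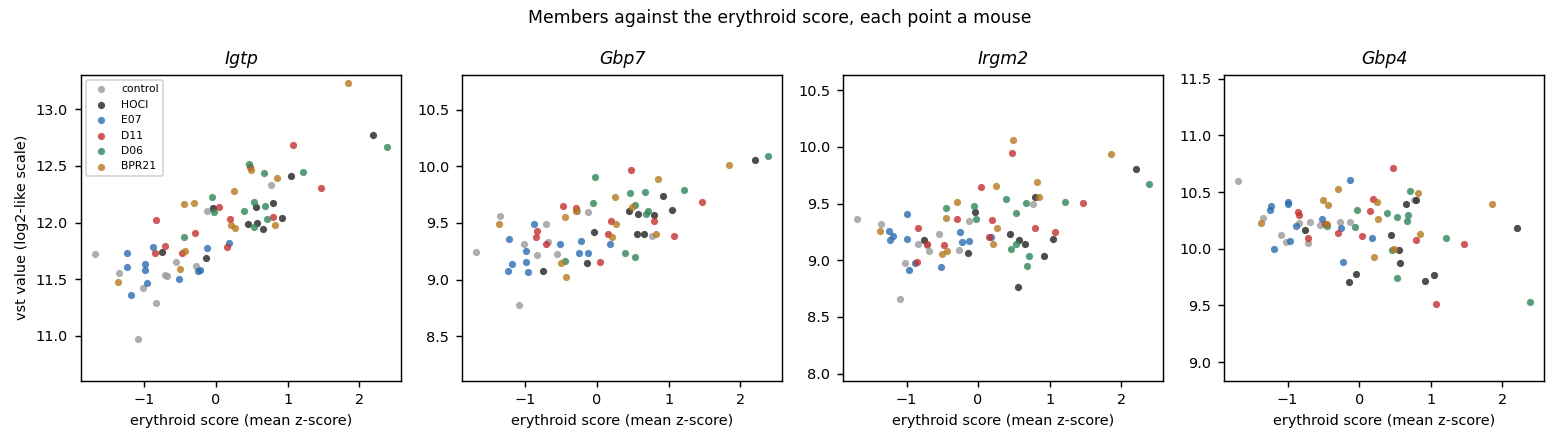
Vst values (log2-like scale) of Igtp, Gbp7, Irgm2 and Gbp4 against the erythroid score (mean z-score of 37 markers), each point a mouse coloured by group. Igtp rises with the score (r = 0.74 on deviations from group means), Gbp7 (0.55) and Irgm2 (0.43) less steeply, and Gbp4 does not (-0.19).

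The signal that induces these GTPases was looked for in the same libraries. Of 11 genes for interferon gamma, its receptor and its signalling, 0 were called by limma in HOCl versus control and 0 in E07 versus HOCl, with 0 and 1 at an unadjusted p under 0.05. The share of all genes called was 4.96% and 7.89%. At such shares a list this short can hold 0 calls without that being a result about its genes. Irf1, an early target of interferon gamma, averaged 10.42 in control, 10.30 in HOCl and 10.30 in E07 mice on the vst scale. Jak1, the receptor's kinase, averaged 12.07, 12.14 and 12.03. Irf8, a transcription factor of the same list, was higher by 0.46 (limma FDR 0.0288) in E07 than in BPR21 mice.

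Of 9 other interferon gamma targets in the normalized table, 0 were called in either comparison, beside the same 4.96% and 7.89% of all genes. At an unadjusted p under 0.05 there were 3 and 5. The share of all genes under that p is not given for these comparisons, so such counts are not read as a result. The listed targets Cxcl9, Cxcl10, Cxcl11, Ido1, Nos2 and Batf2 were outside that table and were not tested. Their median counts were 0 to 6 per mouse. The most abundant of the 9, Psmb8, an immunoproteasome subunit, differed by -0.09 (FDR 0.560) in HOCl versus control and by 0.17 (FDR 0.0460) in E07 versus HOCl. Ciita, the transactivator of MHC class II genes, was not called in either, but was higher in E07 than in D11 mice by 0.40 (limma FDR 0.0406), than in D06 mice by 0.67 (FDR 0.000196) and than in BPR21 mice by 0.70 (FDR 0.0192). Of 12 further interferon-induced GTPases in the normalized table, 0 were called in HOCl versus control or E07 versus HOCl, a count likewise not read as a result at those shares. Gm12250, a further listed GTPase with counts in 71 of 71 mice (median 182), was outside that table and was not tested. So were Gbp6, Gm4951, F830016B08Rik, Gvin1 and Gvin3, at median counts of 0 to 20. Irgq, an IRG family member, was higher by 0.41 (limma FDR 0.0439) in E07 than in D06 mice, and whether interferon induces it was not tested here. Ifi47, an effector of the IRG family, differed by -0.18 (FDR 0.374) and 0.18 (FDR 0.120), and in BPR21 versus HOCl it rose by 0.46 (SE 0.08, limma FDR 0.0055), in 12 of 12 mice above the HOCl median. Mx1, a GTPase gene of the type I response, fell by 0.53 (SE 0.12, limma FDR 0.0388) in BPR21 versus control.

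Some genes of the type I response were called in both comparisons, where the shares over all genes were 4.96% and 7.89%. Of 8 genes for its receptor and signalling, Ifnar2 (log2 fold change 0.59, limma FDR 0.0409) and Irf7 (1.04, limma FDR 0.0202) rose in HOCl versus control. In E07 versus HOCl these genes fell by 0.65 and 1.17, and Usp18, a brake on the receptor, fell by 0.74. Of 19 interferon-stimulated genes, 4 rose in HOCl versus control (Rsad2 by 1.59, Isg15 by 1.49, Oas3 by 1.09 and Cmpk2 by 0.46), and 7 fell in E07 versus HOCl: those 4 and Ifit1, Oas1a and Oasl2. Ifit2 was lower by 0.46 (limma FDR 0.0416) in E07 than in BPR21 mice. Ifit3 (-0.10, FDR 0.754), Ifi44 (-0.21, FDR 0.434) and Bst2 (0.08, FDR 0.746) of the same list were not called in HOCl versus control. On the total-count scale Rsad2 (1.13), Isg15 (0.99), Oas3 (0.79) and Irf7 (0.52) were still called in that comparison, and Ifnar2 (0.18) and Cmpk2 (0.07) were not. There 317 of 10501 genes were called higher. In E07 versus HOCl that scale had 310 of 10501 genes called lower, and the falls above are given on the vst scale only. With the erythroid score as a covariate, 1 of 10508 genes was called in each of these comparisons, so most of the calls above were lost. Transcripts of Ifna1, Ifna2 and Ifna4 had 0 counts in all 71 mice, and Ifnb1 had counts in 1 mouse. A count of 0 allows up to 3 counts per library, so lower levels were not detectable at this depth.

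Proteins that work with the GTPases at vacuoles were a further list. Of 19, 6 rose in HOCl versus control and fell in E07 versus HOCl, namely Gabarapl2 (1.21 and -1.25), Map1lc3b (1.12 and -1.15), Becn1 (0.94 and -0.96), Sqstm1 (0.80 and -0.99), Gabarap (0.63 and -0.69) and Gabarapl1 (0.53 and -0.53), in log2 fold changes. Over all genes, 4.79% were called higher in HOCl versus control and 7.01% lower in E07 versus HOCl. On the total-count scale Gabarapl2 (0.69), Map1lc3b (0.60) and Becn1 (0.44) were still called higher in HOCl mice, where 317 of 10501 genes were called higher. The falls in E07 mice are given on the vst scale only. The 6 are autophagy genes, and the Gabarap and Map1lc3 proteins help to place GTPases on target vacuoles. Map1lc3a was called in 1 comparison, 0.41 higher (limma FDR 0.0156) in D06 than in control mice. Casp4 (-0.17, FDR 0.613), Gsdmd (-0.05, FDR 0.826) and Aim2 (-0.00, FDR 0.991), of the inflammasome arm, were not called in HOCl versus control. The erythroid markers given above rose and fell in the same comparisons, and their part was not tested.

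Over 70 mice, the genes outside the set whose vst values most resembled the mean of the z-scored members were Tgtp2 (r = 0.65), another interferon-induced GTPase, Dnaja1 (0.57), a co-chaperone, Zfp280b (0.53), Gbp2b (0.51), a further guanylate-binding protein, and Oasl2 (0.51). For Igtp alone, looked at after its values were seen, they were Cd47, Myl6, Laptm4a, 1810058I24Rik and Rnf114, each with an r of 0.84. None of those last 5 belongs to the interferon lists used here. These are descriptions over mice that share library scaling.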

How the data were processed

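Whole-blood RNA of 71 mice was sequenced from strand-specific libraries after poly(A) selection and globin depletion. The authors trimmed reads with Cutadapt, aligned them to mm39 with STAR and counted reads per gene with featureCounts. Versions of Cutadapt, STAR and featureCounts, the annotation and the strand setting are not given for these libraries in the sources used here. The deposited counts are raw counts for 55416 genes. The deposited vst values, on a log2-like scale, were made by the authors with DESeq2 for 10508 genes and 70 mice after removing noncoding and low genes. Columns without a sample numbered 0.

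The vst values were fitted with limma 3.58.1 in R 4.3.3 on the mice of the 2 groups compared, over all genes. edgeR 4.0.16 (TMM, quasi-likelihood), DESeq2 1.42.0, other filters, scalings and covariates, and each mouse left out were alternatives. CPM and RPKM used the total count and GENCODE vM39 exons, with a pseudocount of 1 before log2 of CPM. Ratios and correlations used Python 3.11.15 with numpy 2.4.6. The vst and count tables were joined on 10501 unique symbols. Genes named were all members, genes past both thresholds of the interferon and vacuole lists (cell markers are given as counts), up to 3 further abundant genes of each interferon list, and the 5 genes most like the members' mean. Ifit3, Ifi44, Bst2, Casp4, Gsdmd and Aim2 in HOCl versus control, the genes most like Igtp, the Igtp ratios and the comparisons of E07 with the other labelled groups were chosen after values were seen. Members and lists were chosen with earlier results of these data known. The tests were tried on simulated data.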

Additional observations from a re-analysis of the deposited data

How the results depend on the processing

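For HOCl versus control the count of 1 became 0 with edgeR under TMM factors, size factors, a filter of at least 10 counts in at least 11 mice or no filter, 0 with a replicate block by mouse number (Igtp 0.41, FDR 0.0963), 0 with the erythroid score as a covariate and 5 with total-count scaling, and it ran from 0 to 1 over left-out mice. For E07 versus HOCl the count of 1 became 7 with total-count scaling, 3 with the FDR alone and 0 with the erythroid covariate. For D06 versus control it became 6 with total-count scaling and 0 with the erythroid covariate. For BPR21 versus control the count of 0 became 1 with DESeq2, with all 6 groups in a single fit and with the replicate block, as genes called in all went from 53 to 521, 406 and 534. The replicate block changed no other count. Same-numbered mice were not taken as paired, since every comparison had pairs with r under 0.1. Mean r was 0.01 to 0.146 for same-numbered and -0.00971 to 0.000495 for other pairs, and 2 to 7 of the 10 or 11 pairs were over 0.1. In every comparison the mean was higher for same-numbered pairs, and whether they shared a batch was not tested. With the replicate block, genes called in all went from 521 to 85 in HOCl versus control and from 8 to 115 in D11 versus control. The 10 pairs of correlated members became 44 with total-count scaling. The cause of these changes was not tested.

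A change of sign was counted where either value was called or the vst value lay over 1 SE from 0. The vst values of Irgm2 in both comparisons below and of Gbp2 in E07 versus HOCl lay within 1 SE of 0, and the total-count values of Igtp lay near 0. Total-count scaling reversed HOCl versus control for Gbp5 (-0.289), Gbp7 (-0.254), Irgm2 (-0.476) and Igtp (-0.008), and E07 versus HOCl for Gbp2 (0.473), Gbp5 (0.129), Gbp7 (0.168), Irgm2 (0.486) and Igtp (0.039). It also reversed r for Gbp4 and Gbp8 with the monocyte score (0.417 and 0.430), for Gbp7, Irgm2 and Igtp with the erythroid score (-0.459, -0.529 and -0.322), and for Gbp7 and Irgm2 with the B cell score (0.302 and 0.168). The erythroid covariate reversed Gbp7, to -0.132 in HOCl versus control and 0.061 in E07 versus HOCl. With vst differences in place of count ratios, the Igtp ratios past the limit went from 6 to 8 in HOCl versus control from 7 to 8 in E07 versus HOCl, from 3 to 8 in E07 versus D11, from 2 to 6 in E07 versus BPR21 and from 0 to 1 in D06 versus HOCl. Of the remaining values of single genes, correlations and ratios, 639 kept direction and call, 17 gained a call and 10 lost it. Depth limits Gbp5 most, the member with the fewest counts.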
